A study of Mus musculus with 8 samples.

Results

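The Hox genes of whole mouse embryos were described in 4 genotypes of a Gtl2 polyadenylation knock-in. They were taken from the deposited mRNA table as every gene whose symbol is Hox, a cluster letter from a to d and a paralog number. The rule found 39 of 29639 genes, 11 in Hoxa, 10 in Hoxb, 9 in Hoxc and 9 in Hoxd. The genotypes were wild type (WT), and embryos with 3 polyadenylation cassettes in the promoter of Gtl2, a maternally expressed non-coding RNA gene of the imprinted Dlk1-Dio3 domain, carried on the paternal copy (PKI), on the maternal copy (MKI) or on both (HOMO). The cassettes were placed by genome editing, so the insertion is not limited to a cell type. The labels give no strain and do not say how many embryos went into a library. The series' design text gives embryonic day 12.5 for all groups, whereas the titles give that day to WT and a slightly later one to each of PKI, MKI and HOMO. Genotype and titled day therefore cannot be told apart.

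Hox genes encode homeodomain transcription factors that give cells their position along the head-to-tail axis. Each cluster is read in order, so that low paralog numbers at the 3′ end act early and far forward, as in the hindbrain, and high numbers at the 5′ end act late and far back, as in the lumbar and tail region, the distal limb and the genital tubercle. Genes with the same number in different clusters are paralogs with related sequences and overlapping roles, and the forebrain makes almost no Hox RNA. MicroRNA genes lie between and within the Hox genes.

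The labels hold 8 libraries, 2 for each genotype, but each table has 1 column for each. No spread within a genotype can be had from single columns, so no difference below has a test, and whether it exceeds the spread between embryos is unknown. Values are FPKM, fragments scaled by transcript length and library size, which is a level per length. The depth behind them is unknown. Where 4 values follow each other they are those of WT, PKI, MKI and HOMO, in that order. Differences were taken on the scale log2(FPKM + 0.5), which understates the change of low genes, and a difference of 1 or more on that scale is called past 2-fold. Across 13279 genes at 1 FPKM or more in at least 2 columns, Pearson's r of log2 levels was between 0.961 and 0.975 among WT, PKI and HOMO, and between 0.864 and 0.882 for MKI with each of these. The MKI column therefore stood apart, and results that rest on it are given beside those that do not. The Y-linked genes Ddx3y, Uty, Eif2s3y and Kdm5d each had a value of 0 in the WT column. In the other columns they lay between 7.12 and 29.7 FPKM. Embryo sex therefore cannot be told apart from WT against knock-in, and its part in any difference from WT was not tested. In whole embryos fewer cells of a type and less RNA per cell cannot be told apart.

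The microRNAs of the clusters are shown first by sequence, because they fall into families that share a seed across clusters. Capitals mark the seed, bases 2 to 8 from the 5′ end, which pairs with target RNAs. All 11 mature microRNAs of the Hox clusters in the small RNA table were matched to RefSeq entries (GRCm38.p6), and the most abundant were these.
miR-10a-5p: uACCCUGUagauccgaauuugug
miR-10b-5p: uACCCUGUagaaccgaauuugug
miR-196a-5p: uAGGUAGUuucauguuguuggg
miR-196b-5p: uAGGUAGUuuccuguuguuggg
miR-615-3p: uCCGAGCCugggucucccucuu
The miR-10 pair differ by the substitution U12A, written from miR-10a-5p to miR-10b-5p with positions counted from the 5′ end, and the miR-196 pair by A12C, from miR-196a-5p to miR-196b-5p. Both changes lie outside the seed. miR-10a-5p lies at chr11:96317186-96317208 within the RefSeq span of Hoxb3 and next to Hoxb4. miR-10b-5p lies at chr2:74726074-74726096, where the spans of Hoxd3 and Hoxd4 overlap. miR-196a-5p is made from chr11:96265187-96265208, beyond the 5′ side of Hoxb9, and from chr15:102973365-102973386, between Hoxc9 and Hoxc10. miR-196b-5p lies at chr6:52230129-52230150 between Hoxa9 and Hoxa10, and miR-615-3p at chr15:103014969-103014990 within the span of Hoxc5.

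Of the 39 Hox genes, 32 passed the level filter and 7 did not, namely Hoxb1, Hoxb13, Hoxc12, Hoxc13, Hoxd1, Hoxd4 and Hoxd11. These 7 lay between 0 and 1.77 FPKM in every column. The others were of low to middling abundance, with Hoxb9, which patterns the thoracic region, at 12.83 FPKM in WT and Hoxb3, a hindbrain and neck gene, at 11.9 FPKM. Summed over the 39 genes, the level was 165.5, 158.7, 127.4 and 161.4 FPKM. MKI was the lowest of the 4 columns for 23 of the 39 genes, against 6 for WT, 5 for PKI and 4 for HOMO. Spearman's rho over the 39 genes, which share their libraries, was between 0.934 and 0.966 among WT, PKI and HOMO and between 0.869 and 0.894 for MKI with each of them. In 11 of the 13 paralog groups the same gene was the highest member in all 4 columns, the exceptions being groups 2 and 8. In group 2 Hoxb2 led in WT, PKI and HOMO and Hoxa2 in MKI, and in group 8 Hoxc8 led in those 3 columns and Hoxb8 in MKI.

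**Figure D1:**
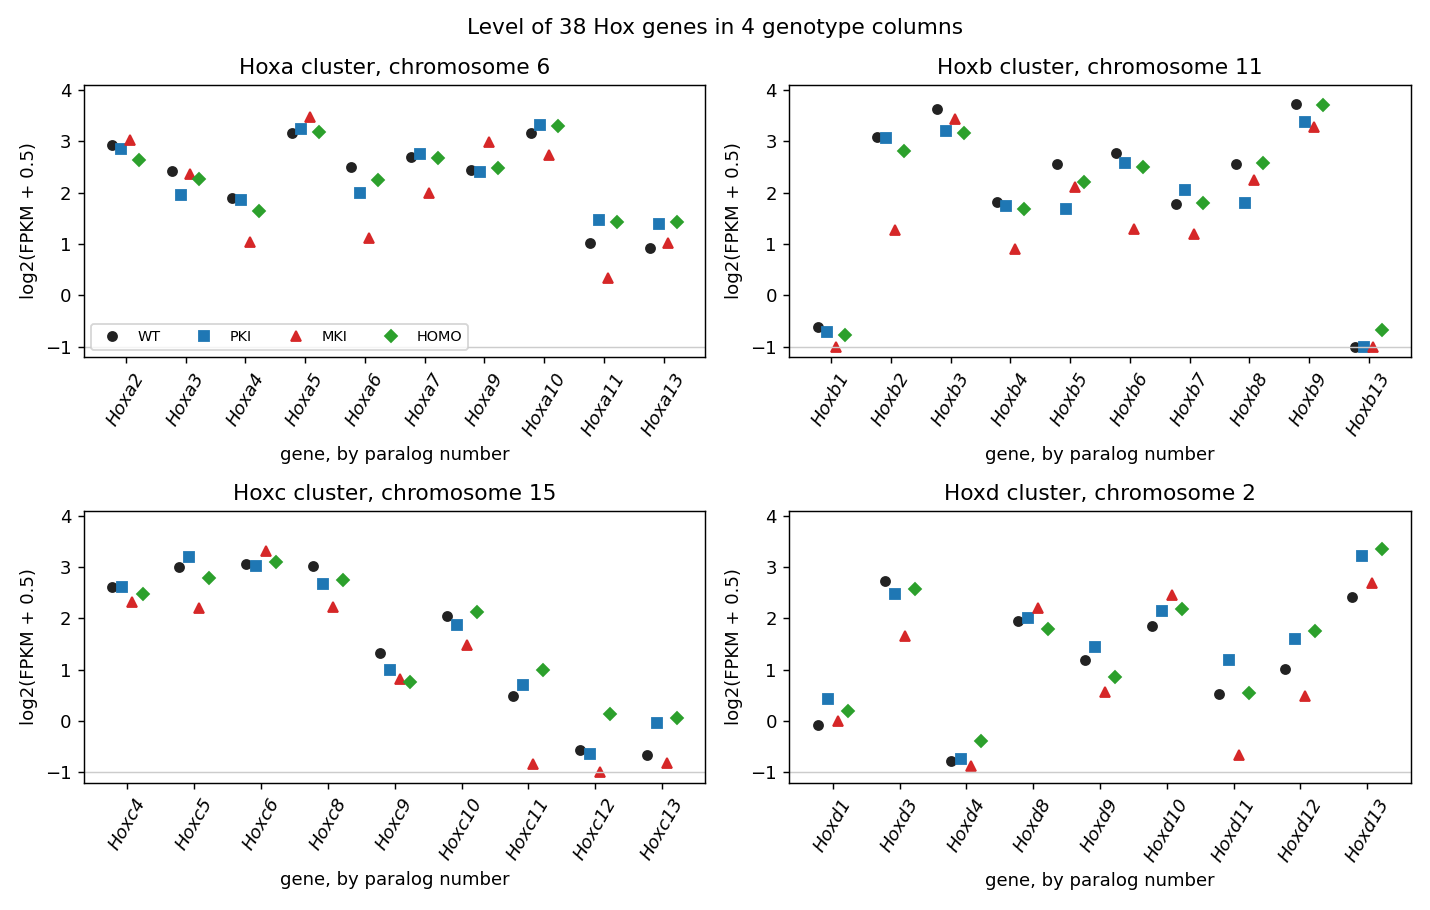
Level of 38 Hox genes in the 4 genotype columns on the scale log2(FPKM + 0.5), 1 panel per cluster with genes in order of paralog number, 1 point per column, and the grey line at an FPKM of 0. Hoxd13 is higher in PKI (8.745 FPKM) and HOMO (9.72 FPKM) than in WT (4.84 FPKM), while Hoxb2 and Hoxb6 in MKI lie far below the other columns.

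Over the 39 genes pooled, the difference from WT went with the paralog number in PKI and in HOMO, though in PKI not in each cluster. Paralog groups 9 to 13, called posterior, lay above WT by a median of 0.24 over 16 genes in PKI and 0.33 in HOMO. Groups 4 to 8, called central, lay at -0.03 over 15 genes in PKI and -0.14 in HOMO, and groups 1 to 3, called anterior, at -0.09 over 8 genes and -0.15. With a filter of 5 FPKM, which leaves only Hoxd13 of groups 11 to 13, the posterior median exceeded the central one by 0.08 in PKI and 0.17 in HOMO, against 0.26 and 0.47 over all members. For PKI the central median was above 0, at 0.06 and 0.09, with median-ratio and quantile scaling. The median of all tested genes was -0.07 in PKI and -0.06 in HOMO. Of the posterior genes 10 were above WT and 5 below in PKI, and 13 above and 3 below in HOMO. Of all tested genes 40.5% were above WT in PKI and 38.5% in HOMO. By cluster the posterior medians in PKI were 0.31 in Hoxa, -0.18 in Hoxb, -0.08 in Hoxc and 0.58 in Hoxd. Only those of Hoxa and Hoxd thus lay above WT. In HOMO the posterior medians were 0.28, 0.15, 0.52 and 0.34 in that order. Over genes above the filter, those of Hoxb (1 gene) and Hoxc (3 genes) in HOMO were -0.02 and 0.08. Spearman's rho between paralog number and difference over the 39 genes was 0.40 in PKI and 0.57 in HOMO, given as a description because both comparisons share the WT column and the genes share their libraries. In HOMO against PKI, which does not use the WT column, the posterior, central and anterior medians were 0.09, -0.06 and -0.10, and rho was 0.33. HOMO against MKI differs by a paternal insertion, as PKI against WT does, but with a maternal insertion in both columns. There the 3 medians were 0.60, 0.52 and 0.05 with a rho of 0.31. Over the 32 genes above the filter rho was 0.32 in HOMO against PKI and 0.20 in HOMO against MKI. Both comparisons share the HOMO column with HOMO against WT, so they are not separate support. In MKI against WT the 3 medians were -0.45, -0.58 and -0.12 with a rho of 0.05, and in MKI against PKI rho was -0.17.

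**Figure D2:**
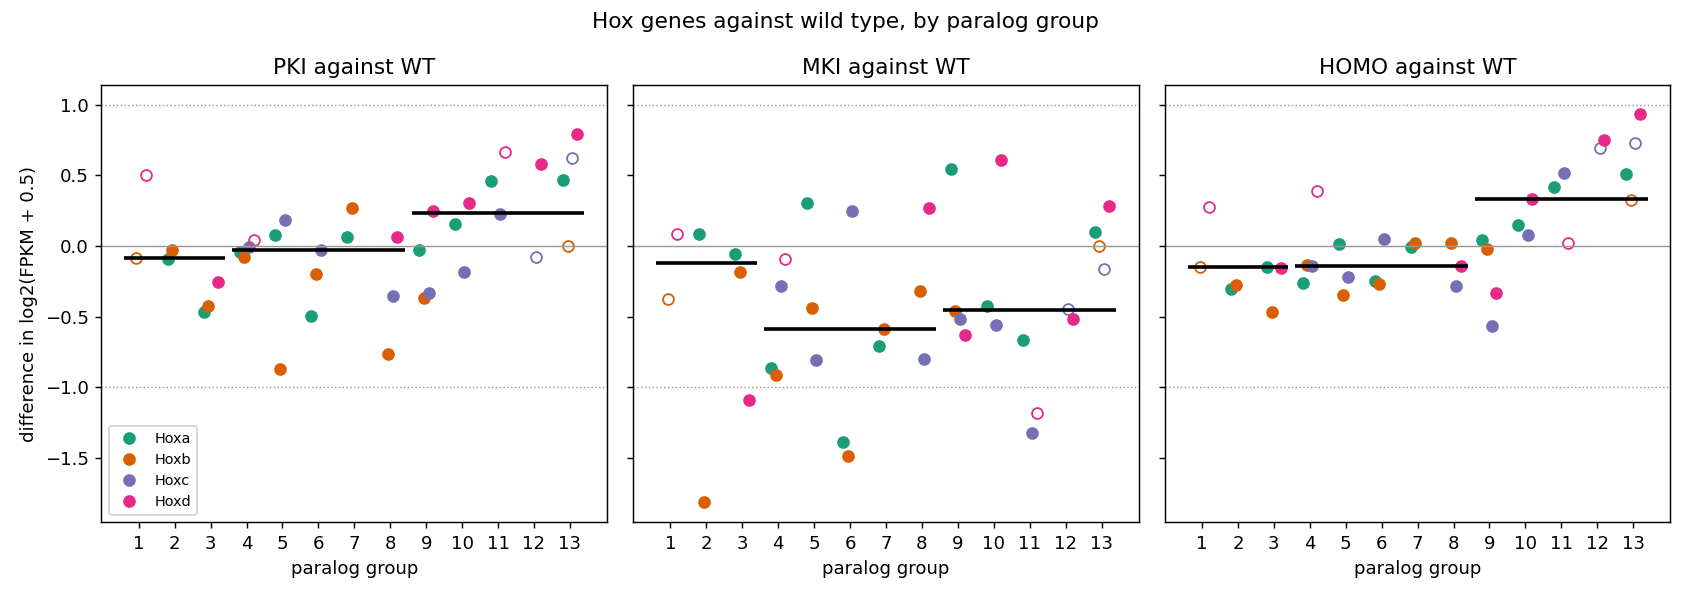
Difference of 38 Hox genes from WT in log2(FPKM + 0.5) against paralog group, coloured by cluster, for PKI, MKI and HOMO. Open circles are genes below the level filter, black bars the medians of groups 1 to 3, 4 to 8 and 9 to 13 over all 39 members, and dotted lines 2-fold. In HOMO the posterior bar lies at 0.33 and the central bar at -0.14, while in MKI all 3 bars lie below 0 and the genes spread from -1.81 to 0.61.

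None of the 32 genes passed 2-fold in PKI against WT, where 2.15% of all tested genes did (0.7% higher and 1.45% lower). None passed in HOMO against WT either, where 1.45% of all genes did (0.67% higher and 0.783% lower). At these shares a count of 0 among 32 is near the background and is not a result about the Hox genes. In MKI 5 of 32, or 15.6%, were more than 2-fold lower, against 19.1% of all tested genes, and none higher, against 1.22% (20.3% in either direction). The share of Hox genes called in MKI was thus near the background. In HOMO against PKI no member passed, where 2.87% of all genes did (1.55% higher and 1.32% lower). HOMO against MKI called 6 of 32, or 18.8%, as higher in HOMO, where 19.7% of all genes were higher, and none as lower, where 3.64% were (23.3% in either direction). MKI against PKI called 5 as lower in MKI, where 16.6% of all genes were, and none as higher, where 2.55% were (19.1% in either direction). These shares too were near the background. The median over the 32 genes was -0.03 in PKI, -0.49 in MKI and -0.08 in HOMO. For PKI the median was 0.07 with median-ratio scaling of the columns and 0.09 with quantile normalization, so it has no settled sign. The MKI column had a median of -0.11 over all tested genes, so the Hox median lay below it, with a gap of -0.38. Quantile normalization brought the MKI Hox median to -0.13 and the gap to -0.24, so their size depends on the scaling. With median-ratio scaling both were -0.38. Of the 39 genes 28 were below WT in MKI, while 44.6% of all tested genes were above it. The mean of MKI minus WT and HOMO minus PKI, the difference that goes with a maternal insertion over both paternal backgrounds, had a median of -0.19. Without the MKI column, HOMO minus PKI alone gave -0.02.

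Genes of groups 11 to 13, which pattern the distal limb, the tail and the urogenital region, showed the difference most, a grouping chosen after the values were seen. All 9 were above WT in HOMO, with a median of 0.52, and 7 of 9 in PKI, with a median of 0.47. Of all tested genes 38.5% were above WT in HOMO and 40.5% in PKI. In HOMO Hoxd11 was only 0.02 above WT, and Hoxb13 was at 0.128 FPKM. Hoxb13 was listed at 0 in both WT and PKI, and Hoxc12 was lower in PKI. Only 5 of the 9 passed the level filter. Together they held 6.89%, 12.1%, 7.42% and 12.85% of the summed Hox level. MKI was thus close to WT in this share, though not in the levels of single genes.

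**Figure D3:**
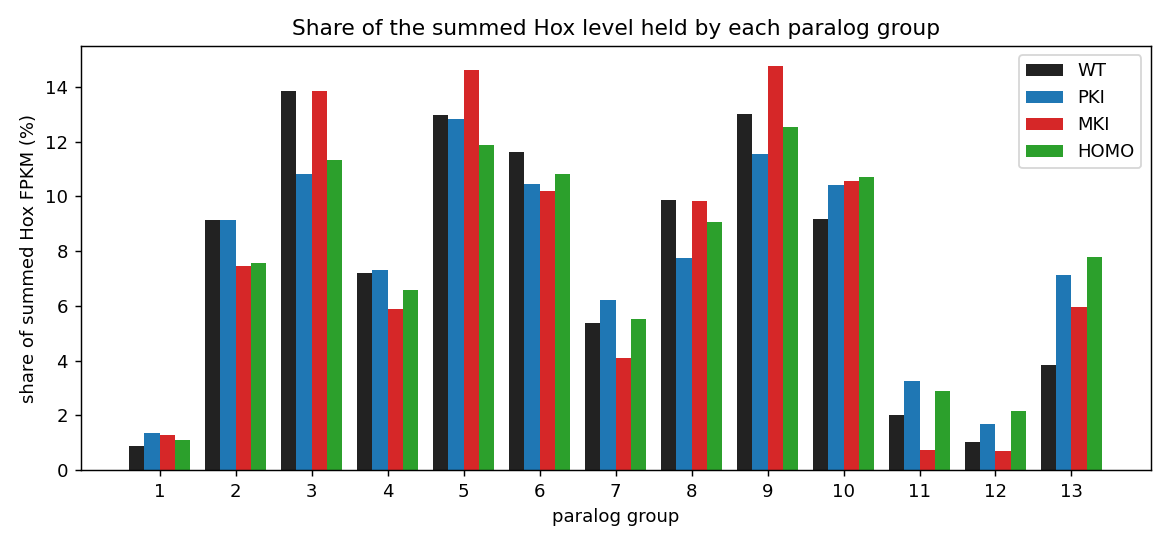
Share of the summed FPKM of the 39 Hox genes held by each of the 13 paralog groups in percent, with 1 bar per genotype column and bars starting at 0. Group 13 holds 3.84% in WT against 7.14% in PKI and 7.80% in HOMO, and the largest share is that of group 3 in WT (13.8%) and of group 9 in MKI (14.8%).

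In the Hoxd cluster (chr2:74668225-74765142) 8 of 9 genes were above WT in PKI, with differences of 0.25 to 0.79 for its 5 posterior genes. Towards the 3′ end the differences were smaller except that of Hoxd1, at 0.51. Hoxd13, which patterns digits and genitalia, stood at 4.84, 8.745, 5.996 and 9.72 FPKM. WT was the lowest of the 4, and PKI and HOMO were 1.81 and 2.01 times the WT level, or 0.79 and 0.94 on the log2 scale. Among the 39 genes its rank by level was 19, 4, 8 and 2, counted from the highest. In the same order of columns Hoxd12, its neighbour with a limb role, stood at 1.52, 2.52, 0.912 and 2.89 FPKM. PKI and HOMO were again above WT, by 0.58 and 0.75, but MKI was below it by 0.51. Hoxd11, which acts in the forearm and kidney, stood at 0.934, 1.77, 0.134 and 0.958 FPKM and was above 1 FPKM only in PKI. Hoxd10, a gene of lumbar motor neurons and limb, stood at 3.10, 3.95, 4.99 and 4.05 FPKM, and Hoxd9 at 1.78, 2.21, 0.975 and 1.31 FPKM. Hoxd10 was higher than WT in all 3 knock-in columns, whereas Hoxd9 was higher only in PKI. Towards the 3′ end Hoxd8 stood at 3.34, 3.51, 4.12 and 2.98 FPKM and Hoxd3, a gene of the neck vertebrae, at 6.17, 5.09, 2.64 and 5.49 FPKM. Hoxd3 was thus highest in WT, and in MKI it was 1.09 lower on the log2 scale. Hoxd4, which lies within the Hoxd3 span, was at 0.0817 to 0.262 FPKM and Hoxd1 at 0.447 to 0.846 FPKM. Evx2, the homeobox gene next to Hoxd13, named here after its values were seen, stood at 0.884, 0.933, 2.21 and 0.957 FPKM and so was highest in MKI.

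The 250 bases before the RefSeq start of Hoxd13, on the plus strand at chr2:74667975-74668224, are shown because this gene stood furthest above WT of the 39 in both PKI and HOMO with a pseudocount of 0.5. With 0.1 the low gene Hoxc13 stood higher, at 1.31 against 0.84 for Hoxd13 in PKI and 1.48 against 0.99 in HOMO, where Hoxc12 (1.32) and Hoxb13 (1.19) did too. Capitals mark the overlapping letters TATAAA and TTTATA, the TATA-box letters on either strand.
Hoxd13: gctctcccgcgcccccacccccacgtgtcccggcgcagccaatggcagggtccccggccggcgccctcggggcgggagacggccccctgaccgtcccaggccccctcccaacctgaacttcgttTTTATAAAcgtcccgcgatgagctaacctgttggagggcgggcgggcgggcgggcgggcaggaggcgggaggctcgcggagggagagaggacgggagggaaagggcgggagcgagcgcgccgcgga
The TATAAA match on the plus strand begins 124 bases before the start. RefSeq promoter windows of 300 bases, from 250 before to 50 after a start, were matched for 22 of the 39 Hox genes (24 windows). TATAAA on either strand was in 4 of the 24, at Hoxa10, Hoxb8, Hoxd4 and Hoxd13, against 13.6% of 32851 windows. TTTATG on either strand, letters bound by CDX and posterior HOX proteins, was in 5 of 24, at Hoxa7, Hoxb8, Hoxd3, Hoxd4 and Hoxd11, against 11.9% of all. TGATTGAT on either strand, a form bound by PBX with anterior HOX proteins, was in 2, at Hoxa2 and Hoxd11, against 0.746%. A match is a description of the letters, and Hoxd12, higher in the same columns, held none of the 3.

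In the Hoxa cluster (chr6:52155367-52260880) the 5′ genes Hoxa10, Hoxa11 and Hoxa13 were also above WT in PKI and HOMO, while Hoxa9 was slightly below WT in PKI. Hoxa13, which works with Hoxd13 in the hand and foot plate and in the genital tubercle, stood at 1.39, 2.11, 1.52 and 2.18 FPKM. Hoxa11, which acts in forearm and kidney, stood at 1.51, 2.28, 0.768 and 2.20 FPKM. For both genes PKI and HOMO lay close together and above WT, by 0.42 to 0.51 on the log2 scale. MKI was near WT for Hoxa13 and 0.67 below it for Hoxa11. Hoxa10, a gene of the lumbar region and the later reproductive tract, stood at 8.42, 9.43, 6.15 and 9.37 FPKM. Hoxa9, a posterior gene also active in blood progenitors, stood at 4.90, 4.79, 7.39 and 5.06 FPKM and was highest in MKI. Hoxa5, a gene of the lung and the neck-thorax boundary, was also highest in MKI, at 8.52, 9.01, 10.7 and 8.60 FPKM. The central genes Hoxa4, Hoxa6 and Hoxa7, of the neck and upper thorax, were lowest in MKI, at 1.55, 1.66 and 3.46 FPKM against 3.23, 5.13 and 5.96 FPKM in WT. In HOMO those 3 were at 2.61, 4.24 and 5.92 FPKM, and in PKI at 3.11, 3.50 and 6.26 FPKM. The anterior genes Hoxa2 and Hoxa3 of the hindbrain and pharyngeal arches lay within 0.47 of WT in every knock-in column. Hoxa2, which sets the identity of the arch next to the jaw, stood at 7.13, 6.67, 7.60 and 5.69 FPKM, and Hoxa3, needed for thymus and parathyroid, at 4.85, 3.37, 4.64 and 4.34 FPKM.

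In the Hoxb cluster (chr11:96194316-96368254) the medians were below WT in all 3 knock-in columns. They were -0.14 over 10 genes in PKI, -0.45 in MKI and -0.14 in HOMO, and 8, 9 and 7 genes were below WT. In MKI the other clusters had medians below WT as well, at -0.06 in Hoxa, -0.52 in Hoxc and -0.09 in Hoxd. In PKI Hoxc was at -0.03, with 6 of 9 genes below WT, while Hoxa and Hoxd were at 0.07 and 0.30. In HOMO Hoxa, Hoxc and Hoxd were at 0.01, 0.05 and 0.28. Over genes above the filter the HOMO median was -0.14 in Hoxc and -0.20 in Hoxb. The medians of all tested genes were -0.07 in PKI, -0.06 in HOMO and -0.11 in MKI. Hoxb9 stood at 12.83, 9.83, 9.19 and 12.65 FPKM, so that HOMO was within 0.02 of WT on the log2 scale and the other columns were lower. Hoxb8, whose RNA is a known target of miR-196, stood at 5.40, 2.98, 4.24 and 5.50 FPKM. Hoxb5, a gene of the gut nervous system and thorax, stood at 5.39, 2.72, 3.84 and 4.14 FPKM. Its difference of -0.87 in PKI was the lowest among the 39 genes in that comparison, with Hoxb8 next at -0.76. Hoxb3 was lower than WT in each knock-in column, at 11.9, 8.73, 10.4 and 8.48 FPKM. Hoxb2, which acts in hindbrain and facial motor neurons, stood at 8.01, 7.86, 1.92 and 6.53 FPKM, with a difference of -1.81 in MKI. That was the lowest among the 39 genes with a pseudocount of 0.5, whereas with 0.1 Hoxc11 (-2.64) and Hoxd11 (-2.14) were lower than Hoxb2 (-2.005). Hoxb6, a thoracic gene, followed at 6.31, 5.45, 1.94 and 5.16 FPKM (-1.48). Hoxb4 stood at 3.03, 2.85, 1.37 and 2.72 FPKM and Hoxb7 at 2.92, 3.63, 1.78 and 2.98 FPKM, again with MKI lowest. Hoxb1, a gene of a single hindbrain segment, was at or below 0.149 FPKM throughout, and Hoxb13 was above 0 only in HOMO, at 0.128 FPKM.

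In the Hoxc cluster (chr15:102921131-103036856), which has no genes of groups 1 to 3, central genes were near WT in PKI and HOMO and mostly lower in MKI. Hoxc8, a gene of thoracic vertebrae and motor neurons, stood at 7.61, 5.85, 4.16 and 6.18 FPKM, and Hoxc5 at 7.57, 8.65, 4.12 and 6.44 FPKM. Both were lowest in MKI, by 0.80 below WT on the log2 scale. Hoxc6, a thoracic gene, was highest in MKI, at 7.81, 7.67, 9.40 and 8.09 FPKM, and Hoxc4 stood at 5.60, 5.58, 4.52 and 5.04 FPKM. Hoxc9, which sets thoracic motor neuron identity, was highest in WT, at 2.01, 1.499, 1.26 and 1.19 FPKM. It was the Hox gene furthest below WT in HOMO, by 0.57. Hoxc10, a lumbar gene, stood at 3.65, 3.14, 2.31 and 3.87 FPKM. Hoxc11, a hindlimb gene, stood at 0.901, 1.14, 0.0609 and 1.504 FPKM. Its difference of 1.84 between HOMO and MKI became 3.32 with a pseudocount of 0.1 and 1.24 with 1. Hoxc12 and Hoxc13, the latter a hair and nail gene, were at 0 to 0.597 FPKM.

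The 5 genes more than 2-fold lower in MKI were Hoxb2, Hoxb6, Hoxa6, Hoxc11 and Hoxd3, at least 1 from each cluster. They did not share a position, with paralog numbers from 2 to 11. By contrast 6 genes had MKI as their highest column, namely Hoxa2, Hoxa5, Hoxa9, Hoxc6, Hoxd8 and Hoxd10. Gene span moved with the MKI difference across the table, with Spearman's rho of 0.342 over 12333 genes with a span, which are not independent replicates, and 0.202 over the 32 Hox genes. The part of span in the MKI differences of the Hox genes was not tested. In PKI rho with span was -0.279 over all and -0.335 over the 32 Hox genes, and in HOMO -0.154 and -0.030. RefSeq spans of 10 Hox genes overlap another member (Hoxa3 with Hoxa4, Hoxa5 and Hoxa6, Hoxb3 with Hoxb4, Hoxd3 with Hoxd4, Hoxd10 with Hoxd11), and how fragments were split between them is uncertain.

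The microRNAs of the clusters are set beside the Hox genes next to them, in some columns with the same direction from WT and in others with the opposite. Levels are RPM, small RNA reads scaled to a common library total, and their intervals are exact and cover counting error only, so they compare libraries and not genotypes. In the libraries 38.6% of small RNAs with enough reads differed between PKI and WT by an exact binomial test with Benjamini-Hochberg adjustment, 43.5% between MKI and WT and 39.9% between HOMO and WT. Past 2-fold were 2.38%, 19.8% and 19.2% of the 505 small RNAs at 10 RPM or more in at least 2 columns. miR-10a-5p, among the most abundant microRNAs of trunk tissue, stood at 60634, 76950, 89109 and 71254 RPM, and miR-10b-5p at 56616, 73134, 90628 and 64996 RPM. WT was lowest and MKI highest for both. In MKI they were 147% and 160% (interval 159.5 to 160.7%) of WT, while Hoxb4 and Hoxd3 beside them were lower than WT. Reads of the Dlk1-Dio3 domain made up 13.7%, 12.4%, 0.407% and 0.424% of the small RNA total. RPM in MKI and HOMO is thus scaled to a total with a smaller share of domain reads. Among the 505 small RNAs, the median of those outside the domain was at 100%, 101% and 110% of WT in PKI, MKI and HOMO. Taken over reads outside the domain, miR-10a-5p was at 125%, 127% and 102% of WT in PKI, MKI and HOMO, and miR-10b-5p at 127%, 139% and 99.5%.

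The 5p forms of miR-196 were lower in MKI and HOMO than in WT. miR-196b-5p stood at 2471, 2350, 1511 and 1330 RPM, so that MKI held 61.1% (59.8 to 62.5%) and HOMO 53.8% (52.6 to 55.1%) of WT. Over reads outside the domain these were 53.0% and 46.7%. Of its neighbours Hoxa10 was also below WT in MKI, at 6.15 against 8.42 FPKM, but not in HOMO, at 9.37 FPKM, and Hoxa9 was above WT in both, at 7.39 and 5.06 against 4.90 FPKM. miR-196a-5p, with the same seed, stood at 961, 1078, 697 and 776 RPM. It was at 72.5% and 80.8% of WT in MKI and HOMO, or 62.9% and 70.0% over reads outside the domain. Hoxb9, Hoxc9 and Hoxc10 beside its genes were below WT in MKI, at 0.716, 0.625 and 0.634 times the WT level, and at 0.986, 0.593 and 1.06 times in HOMO. The level of Hoxb8, the known target of this seed, was 4.24 FPKM in MKI and 5.50 FPKM in HOMO against 5.40 FPKM in WT. miR-615-3p stood at 4336, 1961, 2732 and 3908 RPM. In PKI it held 45.2% (44.4 to 46.0%) of WT, whereas Hoxc5, whose span holds it, was highest in PKI, at 1.14 times the WT level. In MKI and HOMO both were below WT, with miR-615-3p at 63.0% and 90.1% and Hoxc5 at 0.544 and 0.851 times the WT level. With reads outside the domain as the total, miR-615-3p was at 54.6% and 78.1% in those columns. Its partner strand miR-615-5p was at 35.7, 29.2, 24.1 and 29.7 RPM, or 81.8% (69.4 to 96.4%) of WT in PKI. The other 5 mature forms lay between 1.85 and 428 RPM. Of them miR-10a-3p and miR-10b-3p were within 98.0 to 112% of WT by RPM in every column. Taken over reads outside the domain, miR-10a-3p was at 95.8% and 97.4% in MKI and HOMO, and miR-10b-3p at 84.9% and 90.5%. The low form miR-196a-2-3p was at 5.95, 2.38, 9.26 and 8.98 RPM from 24 to 80 reads.

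**Figure D4:**
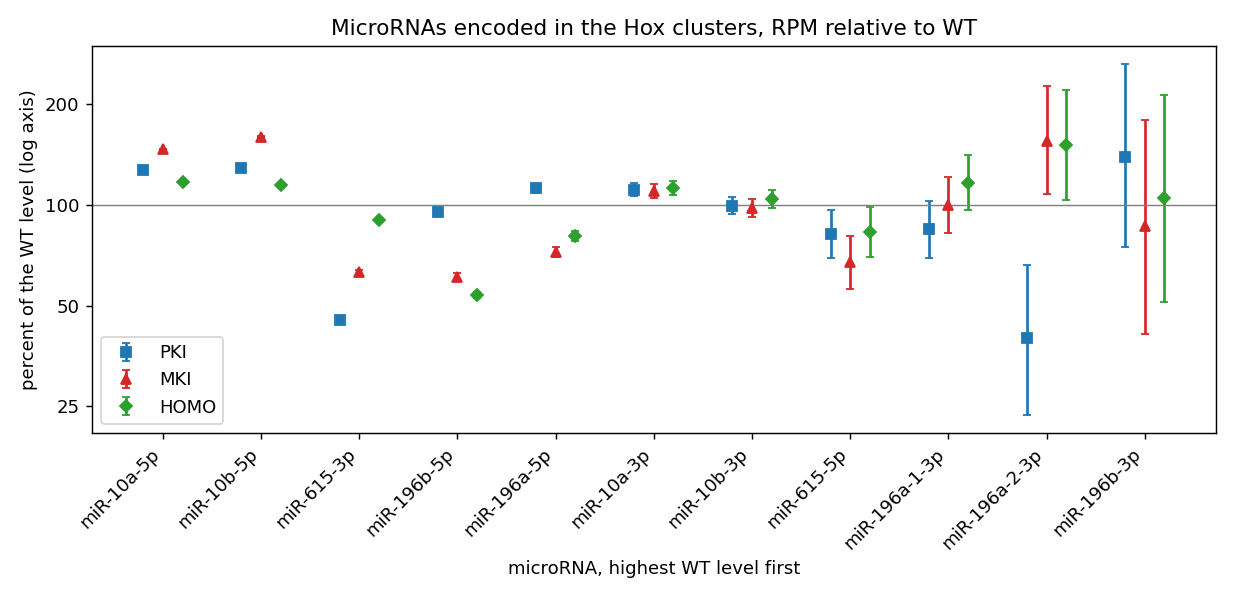
Level of the 11 mature microRNAs of the Hox clusters in PKI, MKI and HOMO as a percentage of WT on a log axis, ordered by WT level. Bars are exact 95% intervals of the read ratio and cover counting error only. miR-615-3p lies at 45.2% in PKI, and miR-196b-5p at 61.1% in MKI and 53.8% in HOMO.

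Cofactors that bind DNA with HOX proteins lay below WT for 8 of 9 genes in PKI, 5 in MKI and 6 in HOMO. Of these TALE homeodomain genes (Pbx, Meis and Pknox), each above the filter, 1 was past 2-fold lower in PKI, 2 in MKI and none in HOMO, with medians of -0.17, -0.42 and -0.12. Of all tested genes 1.45%, 19.1% and 0.783% were past 2-fold lower in PKI, MKI and HOMO. In the same order 40.5%, 44.6% and 38.5% of all tested genes were above WT. The counts for this list and those that follow are to be read against these shares. For MKI 2 of 9 past 2-fold was near the background. So were the counts below WT of 5 of 9 in MKI and 6 of 9 in HOMO. Pbx4 stood at 3.13, 1.13, 0.813 and 1.62 FPKM and Meis3 at 8.94, 7.84, 3.32 and 10.4 FPKM. Pbx2 stood at 29.4, 30.7, 18.1 and 31.8 FPKM. Of 14 genes of the retinoic acid axis, which sets anterior Hox borders, 13 were below WT in MKI, 4 of them past 2-fold, and none passed 2-fold in PKI or HOMO (medians 0.03, -0.72 and -0.05 in PKI, MKI and HOMO). The retinoic acid receptor gene Rarg stood at 14.9, 15.1, 4.74 and 14.8 FPKM, and Stra6, a retinol transporter, at 12.4, 10.4, 3.75 and 13.4 FPKM. Of the Cdx, Gdf11 and tail bud list only Gdf11, Lin28b and Wnt5a of 11 passed the filter, and none passed 2-fold. Gdf11, which helps start posterior Hox expression, stood at 7.98, 7.51, 5.86 and 9.42 FPKM.

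Chromatin regulators of the clusters lay on both sides of WT in MKI. Of 23 Polycomb genes, which keep Hox genes silent, 6 were past 2-fold lower in MKI, and none in PKI or HOMO (medians 0.03, -0.34 and -0.05 in PKI, MKI and HOMO). In MKI 14 were below WT and 9 above it. Cbx6 stood at 12.4, 9.16, 2.17 and 11.6 FPKM, Phf1 at 3.61, 2.98, 0.714 and 4.08 FPKM and Phc2 at 45.6, 41.2, 15.2 and 49.4 FPKM. The core subunit genes Ezh2, Suz12 and Eed, named after their values were seen, were above WT in MKI by 0.73, 0.58 and 0.51 on the log2 scale. Of 13 trithorax and demethylase genes, which keep them active, 3 were past 2-fold lower in MKI (medians -0.30, -0.13 and -0.10), where 7 were below WT and 6 above it. Kdm6b, a demethylase gene, stood at 14.4, 9.91, 4.53 and 14.04 FPKM, Kmt2b at 11.7, 7.94, 4.40 and 12.1 FPKM and Kmt2d at 11.8, 6.67, 4.94 and 12.5 FPKM. Of 14 genes beside the clusters above the filter, Snx11 near Hoxb was past 2-fold, at 3.49 FPKM in MKI against 7.87 FPKM in WT, and no other. The medians of the 14 were -0.12, 0.25 and -0.07 in PKI, MKI and HOMO. In MKI 9 of them were above WT and 5 below.

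Markers of the body parts that make Hox RNA are given beside the graded difference. Of 18 limb bud genes 13 lay above WT in PKI and 12 in HOMO, with medians of 0.13 and 0.06 and none past 2-fold, while in MKI 12 lay below WT and 6 of these past 2-fold, and their summed level (19 genes) was 100.5, 112.8, 72.2 and 107.4 FPKM. Msx1, made in distal limb mesenchyme, stood at 7.90, 13.4 and 12.5 FPKM in WT, PKI and HOMO and was listed at 0 in MKI, as was Msx2. Pitx1, of the hindlimb, stood at 10.04, 11.97, 0.904 and 10.4 FPKM. Of 16 hindbrain and spinal cord genes 14 were below WT in PKI and 12 in HOMO (medians -0.64 and -0.16), and their summed level (20 genes) was 63.6, 40.8, 46.3 and 58.7 FPKM. Forebrain and midbrain genes, which mark tissue with almost no Hox RNA, had medians of -0.26, -0.51 and -0.11 over 18 genes in PKI, MKI and HOMO, with a summed level (20 genes) of 63.3, 50.2, 50.2 and 56.5 FPKM. Somite genes (9) had medians of 0.11, -1.09 and -0.38, kidney and gonad genes (11) of -0.39, -0.57 and -0.15, and genital tubercle and hindgut genes (9) of -0.16, -0.43 and -0.13. Past 2-fold lower in MKI were 5, 4 and 4 genes of these lists, 4 of the forebrain and midbrain list and 5 of the hindbrain and spinal cord list, and 1 kidney and gonad gene in PKI. The part of these tissues in the Hox differences was not tested.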

How the data were processed

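RNA of whole mouse embryos was measured in 4 genotypes, with 8 samples in the labels and 4 columns in each table. The submitters' processing notes name cutadapt 1.9, HISAT2 2.0.4, StringTie 1.3.4d and GRCm38, with DESeq2 and edgeR, and give no order. The deposited mRNA values were read as FPKM, the output of StringTie. The table header names no unit. Small RNA values are deposited by the authors as RPM. In all columns 100% of values up to 1000 reads were whole multiples of 1 read within 0.02 of a read, and the totals were 8016848 to 10072670 reads. The table of long non-coding transcripts was not used here. Libraries were made from oligo(dT)-selected RNA, per the labels' protocols. The small RNA library protocol is not stated, nor whether a column is 1 library or several.

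Symbols were matched for 22022 of 22036 Ensembl IDs, and 40 entries sharing symbols were summed. The fixed design used limma only if columns were replicated. They are not, so differences of log2(FPKM + 0.5) with a 2-fold threshold and a filter of 1 FPKM in 2 columns were used. Hox genes above the filter are given with their values, except that 1 is not reported here by name and is left out of the plotted points. Of other lists the text gives counts, medians and at most 4 members with the largest differences from WT, and of genes beside the clusters those past 2-fold. Gene members and lists were chosen with earlier results of these data known. Alternatives were pseudocounts of 0.1 and 1, no filter, a filter of 5 FPKM, a common column sum, median-ratio scaling and quantile normalization. RPM outside the domain and the binomial test were added after seeing the data. The exact binomial test took small RNAs with at least 10 reads in a pair of libraries. Steps were tested on simulated data. Python 3.11.15, numpy 2.4.6, pandas 2.3.3, scipy 1.17.1 and matplotlib 3.10.9 were used.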

Additional observations from a re-analysis of the deposited data

How the results depend on the processing

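With 1 column per genotype no spread between embryos is known, and the depth behind FPKM is unknown, so genes near 1 FPKM are the least certain. No paired analysis was possible because the columns carry no replicate number, and leaving out a replicate was not possible either. No result changed sign among those past 2-fold. Counts of Hox genes past 2-fold moved by over 1.5 times as follows, and the cause was not tested except where fewer genes were tested. Lower in MKI than WT were 5, but 3 with a pseudocount of 1, 3 with quantile normalization (and 1 higher) and 3 of the 16 genes left by a filter of 5 FPKM. Lower in MKI than PKI were 5, but 8 with a pseudocount of 0.1, 3 with a pseudocount of 1, 3 with a common column sum, 3 with quantile normalization and 2 with the stricter filter. Higher in HOMO than MKI were 6, but 3 with quantile normalization and 2 with the stricter filter. Higher in HOMO than WT were 0, but 1 with median-ratio scaling and 1 with quantile normalization, in both cases Hoxd13, at 1.01 and 1.05. The gap between posterior and central medians was 0.47 in HOMO and 0.26 in PKI against WT, and 0.17 and 0.08 with the filter of 5 FPKM, which leaves only Hoxd13 of groups 11 to 13. Of all genes past 2-fold, 32.5% were higher in PKI, 24.0% with a common column sum and 45.1% with quantile normalization. In MKI these were 6.01%, 14.5% and 25.9%.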
